A study of Mus musculus with 4 samples.

Results

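The genes described here are 10 mouse genes of class I antigen processing, chosen by their symbols: Psmb8, Psmb9 and Psmb10 of the immunoproteasome, the transporter genes Tap1 and Tap2, Tapbp, B2m, the heavy chain genes H2-K1 and H2-D1, and the regulator gene Nlrc5. All 10 were found among the 24421 genes of the deposited table. RNA came from 4T07 cells, an established murine mammary carcinoma line from Balb/cfC3H mice, grown at 37°C in 5% CO2 and lysed 48 hours after plating. According to the labels, 2 libraries were of control genotype and 2 of cells with Six2 Overexpression, Six2 being a homeobox transcription factor gene. The labels name neither the vector, its promoter nor the number of clones, and leave unsaid whether each replicate was a culture of its own. The p-values below therefore reflect only how far these libraries spread, and that spread may be technical. Values are RPKM, that is reads divided by the length of the gene and the size of the library. The members were chosen with their difference between control and Six2-labelled libraries already known, so that difference is described below without a test.

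Class I molecules display peptides from inside the cell to CD8+ T cells. The proteasome cuts proteins into peptides, and when interferon is sensed its catalytic beta subunits can be replaced by the immunoproteasome subunits encoded by Psmb8, Psmb9 and Psmb10. The transporter formed by the Tap1 and Tap2 products moves peptides into the endoplasmic reticulum, where tapasin, encoded by Tapbp, holds the empty class I molecule next to the transporter. A class I molecule is a polymorphic heavy chain, such as the products of H2-K1 and H2-D1, bound to beta-2 microglobulin, the product of B2m. NLRC5 is a transactivator that acts on many of these promoters, and tumours are known to lose expression of parts of this pathway.

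Promoters of 5 members are shown first. Tap1 is shown because it and Psmb9 are read in opposite directions from the same stretch, Psmb8 and Tapbp because they had the highest and the lowest difference, and H2-D1 and B2m as the most abundant heavy chain and the light chain of the presenting molecule. RefSeq windows of GRCm38.p6, from 250 bases before to 50 bases after a start site, were matched for 8 of the 10 members, Tap2 and Nlrc5 having no entry. Sequences run 5′ to 3′ on the strand of the gene. Capitals mark matches, on either strand, to the core of the interferon-stimulated response element (GAAA, then NN, then GAAA, where N is any base), its relaxed form GAANNGAAA, the gamma-activated sequence TTCNNNGAA or the kB consensus. The CCAAT pentamer was searched too and is left in lower case. Positions below count from 1 at the start site, and negative positions lie before it. The relaxed form was added after the windows had been read.
Tap1, chr17:34187306-34187605, plus strand: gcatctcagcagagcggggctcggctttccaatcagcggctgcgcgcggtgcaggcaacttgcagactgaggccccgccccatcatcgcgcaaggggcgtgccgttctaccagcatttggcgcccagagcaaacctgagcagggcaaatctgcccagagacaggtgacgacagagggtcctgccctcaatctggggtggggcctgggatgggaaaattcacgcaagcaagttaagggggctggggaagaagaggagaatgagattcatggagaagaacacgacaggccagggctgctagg
Psmb8, chr17:34197945-34198244, plus strand: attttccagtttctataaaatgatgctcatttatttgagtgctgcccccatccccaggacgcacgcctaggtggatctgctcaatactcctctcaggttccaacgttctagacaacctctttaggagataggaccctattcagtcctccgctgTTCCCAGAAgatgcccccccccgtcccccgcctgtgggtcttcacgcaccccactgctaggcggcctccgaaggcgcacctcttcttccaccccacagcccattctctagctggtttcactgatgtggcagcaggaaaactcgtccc
Tapbp, chr17:33919228-33919527, plus strand: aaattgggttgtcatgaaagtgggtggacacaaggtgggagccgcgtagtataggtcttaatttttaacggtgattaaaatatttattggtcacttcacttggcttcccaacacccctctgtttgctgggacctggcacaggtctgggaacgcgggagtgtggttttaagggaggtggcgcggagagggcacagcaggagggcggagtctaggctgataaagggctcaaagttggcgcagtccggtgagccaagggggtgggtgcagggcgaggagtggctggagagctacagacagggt
H2-D1, chr17:35262844-35263143, plus strand: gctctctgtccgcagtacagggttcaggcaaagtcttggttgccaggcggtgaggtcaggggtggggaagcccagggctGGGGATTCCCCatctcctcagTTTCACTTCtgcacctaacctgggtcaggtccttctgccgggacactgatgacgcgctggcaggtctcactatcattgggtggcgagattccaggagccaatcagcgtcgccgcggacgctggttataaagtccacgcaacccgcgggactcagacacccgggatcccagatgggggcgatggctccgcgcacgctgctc
B2m, chr2:122147437-122147736, plus strand: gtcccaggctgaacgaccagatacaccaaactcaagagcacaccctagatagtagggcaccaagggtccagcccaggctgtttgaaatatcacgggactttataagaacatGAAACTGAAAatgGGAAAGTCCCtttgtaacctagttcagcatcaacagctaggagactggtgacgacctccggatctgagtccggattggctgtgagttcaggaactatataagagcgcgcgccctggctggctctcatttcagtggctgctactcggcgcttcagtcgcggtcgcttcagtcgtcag

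The Tap1 and Psmb9 windows shared 275 bases. Both held 1 CCAAT pentamer, the same site seen from opposite strands, and none of the capitalised motifs. The Psmb8 window held 1 match to the gamma-activated sequence, at positions -97 to -89. In B2m a response element core lay at positions -139 to -130 and a kB match at -126 to -117. The H2-D1 window held overlapping kB matches between positions -171 and -161 and a relaxed response element at -150 to -142. The H2-K1 window carried the same kind of matches, and its longest run shared with H2-D1 was 47 bases. The Tapbp window held only CCAAT pentamers, 2 in all, both on the opposite strand. Over the 32851 windows of the RefSeq table, 3.44% held the response element core, 7.52% the relaxed form, 8.3% the gamma-activated sequence, 4.51% the kB consensus and 37.4% a CCAAT pentamer. A match describes letters in a window and is no evidence of binding.

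Read totals recovered from the steps of the RPKM values were between 41881864 and 49910629 in 3 libraries and 81524250 in Six2-labelled replicate 2. A single read over 1 kb of gene equalled between 0.0123 and 0.0239 RPKM, depending on the library. Six2 itself was listed at 0 RPKM in both control libraries and in Six2-labelled replicate 2 and at 0.0285 RPKM in Six2-labelled replicate 1, and an overexpression as labelled is not seen in these values. Every direction below is therefore given for libraries by their label only. Of the 7 carcinoma markers, the keratin genes Krt8 and Krt18 and the vimentin gene Vim were at 389 RPKM or more in every library, and Epcam was under 1 RPKM in all. Epcam was at 0.72 and 0.68 RPKM in the controls and lower in the Six2-labelled libraries, at 0.21 and 0.083 RPKM. The other 3 were lower in the Six2-labelled libraries as well. Cdh1, the E-cadherin gene, was at 14.6 and 8.40 RPKM in the controls against 0.186 and 0.103 RPKM, Krt7 at 10.8 and 8.67 against 0.467 and 0.634 RPKM, and Krt19 at 8.76 and 4.26 against 0.802 and 0.464 RPKM. The part of this difference in the results below was not tested. Among 15 leukocyte markers in the table, 12 were under 1 RPKM in every library and 5 were at 0 throughout, and Ptprc, the pan-leukocyte CD45 gene, did not exceed 0.00433 RPKM. Under 1 RPKM in every library were also 7 of 8 markers of professional antigen-presenting cells, 6 of 7 of fibroblasts and 5 of 6 of endothelium.

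The members spanned more than 3 orders of magnitude in level per length, compared as mean RPKM over the 4 libraries. B2m was highest at 709.9 RPKM, followed by H2-D1 at 77.4, Tapbp at 31.9 and Psmb10 at 16.4 RPKM. Psmb8 at 6.31, H2-K1 at 4.00, Tap2 at 3.98 and Nlrc5 at 3.70 RPKM came next, and their ranges over the libraries overlapped. Tap1 at 1.16 and Psmb9 at 0.521 RPKM were the rarest. Of neighbours in this order, Tapbp and Psmb10 overlapped as well, and so did Tap1 and Psmb9, whereas B2m, H2-D1 and Tapbp were separate from each other, as were Psmb10 and Psmb8 and also Nlrc5 and Tap1. The plot of levels by library shows this order.

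**Figure D1:**
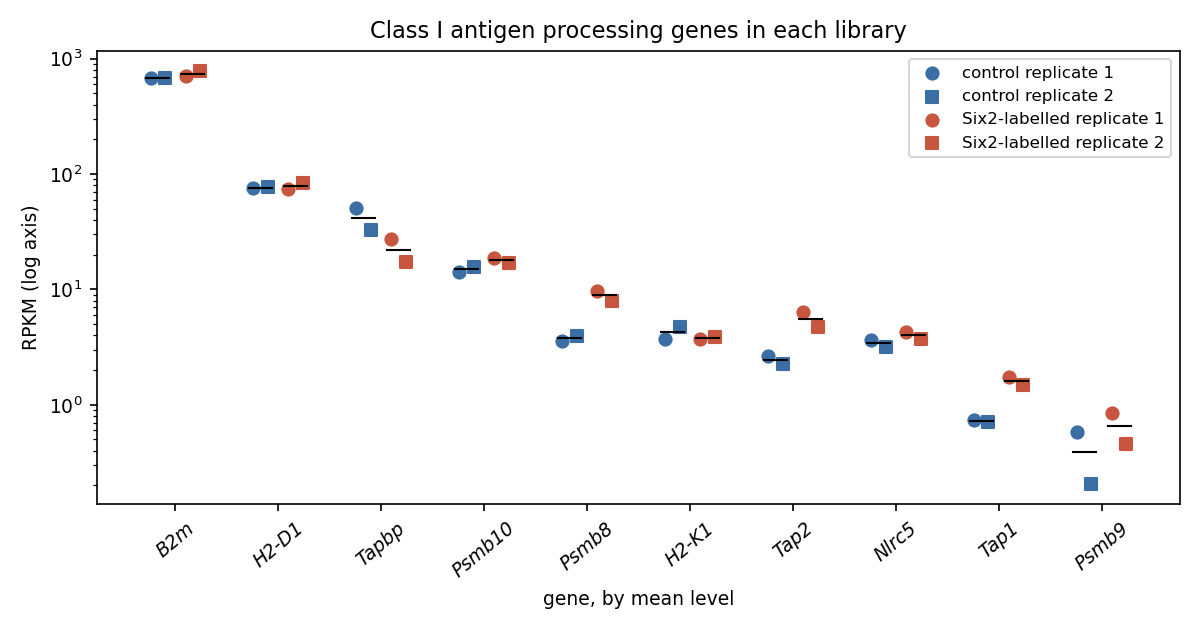
RPKM of the 10 genes (log axis) in each of the 4 libraries, genes ordered by mean level. Blue points are control and red points Six2-labelled libraries, circles are replicate 1 and squares replicate 2, and short bars are the group means. Psmb8, Tap1 and Tap2 lie higher and Tapbp lower in both Six2-labelled libraries, while H2-D1 and H2-K1 overlap.

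Psmb8, Tap1 and Tap2 were all more than 2 times as high in Six2-labelled cells, Tapbp was at 0.532 times the control mean, and the presenting molecules themselves, B2m, H2-D1 and H2-K1, lay within 0.892 to 1.09 times it. In bulk RNA, fewer expressing cells and less RNA per cell cannot be told apart. Both Six2-labelled values lay above both control values for 6 of the 10 members and below them for 1, and 9 of the 10 passed the filter of at least 1 RPKM in 2 libraries. Of all 10654 genes that passed it, 47.4% lay apart, 21.9% in the higher and 25.5% in the lower direction, and since the members were chosen on this contrast nothing is read from their count. The median difference of the 10 members was 0.21 on the log2(RPKM + 1) scale, beside -0.01 over all genes tested. That scale understates the change of low genes. A median hides the divergence among the members, whose differences ran from -0.88 for Tapbp to 1.05 for Psmb8. The plot of each library against the control mean shows both ends.

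**Figure D2:**
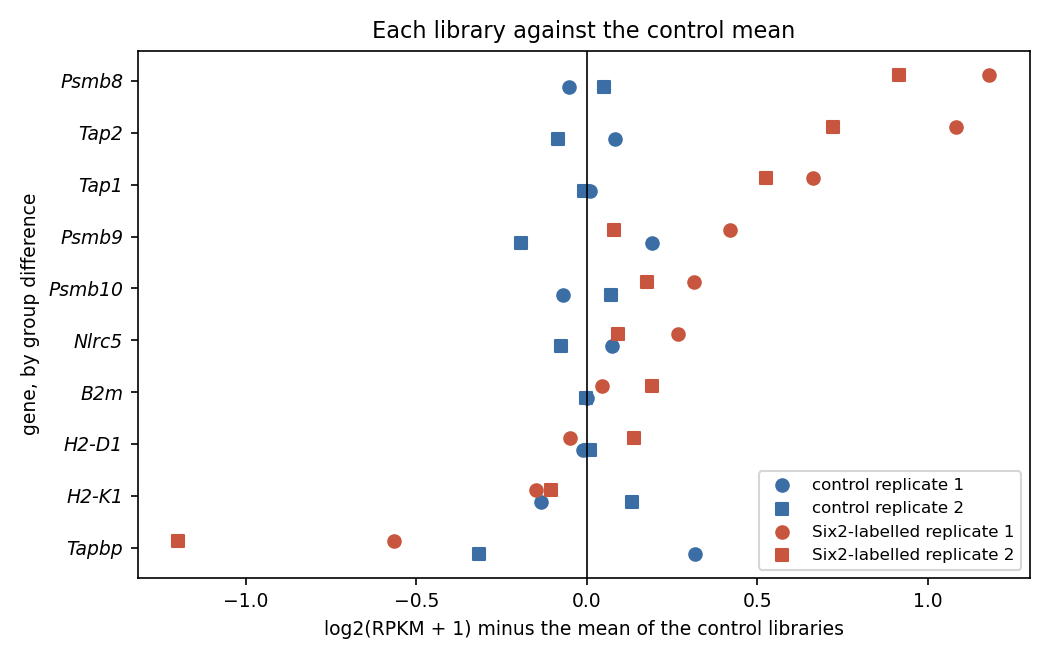
Each library's log2(RPKM + 1) value minus the mean of the control libraries, for the 10 genes ordered by group difference. Blue is control, red Six2-labelled, circles replicate 1 and squares replicate 2. Psmb8, Tap2 and Tap1 stand to the right in both Six2-labelled libraries and Tapbp to the left.

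Among the immunoproteasome genes, Psmb8 (chromosome 17, 34197721 to 34201454, plus strand), which encodes the chymotrypsin-like subunit LMP7, was at 3.58 and 3.92 RPKM in control replicates 1 and 2 and at 9.76 and 7.96 RPKM in Six2-labelled replicates 1 and 2. These values correspond to at least 189, 201, 596 and 794 reads. Read numbers given here are the smallest that fit the steps of the RPKM values, and a multiple of them with an equally longer gene would fit as well. Both Six2-labelled libraries were above both controls, and the group means of 3.75 ± 0.24 and 8.86 ± 1.27 RPKM (SD, n = 2 per group) gave a ratio of 2.36. Psmb10 (chromosome 8, 105935735 to 105938444, minus strand), which encodes the trypsin-like subunit MECL-1, was at 14.2 and 15.7 RPKM in the controls and at 18.8 and 16.98 RPKM in Six2-labelled cells. The groups did not overlap but were close, with a ratio of means of 1.20. Psmb9 (chromosome 17, 34181987 to 34187764, minus strand), which encodes LMP2, was at 0.576 and 0.207 RPKM in the controls and at 0.845 and 0.457 RPKM in Six2-labelled cells, from at least 20, 7, 34 and 30 reads. Its groups overlapped, and Six2-labelled replicate 2 lay below control replicate 1. At those smallest read numbers the exact 95% Poisson intervals, which cover counting error only and would be narrower with more reads, were 0.352 to 0.889 RPKM for control replicate 1 and 0.308 to 0.652 RPKM for Six2-labelled replicate 2. In GENCODE M21, exons of Psmb9 and Tap1 share 212 bases on opposite strands, and an antisense gene, Gm20496, covers 14.7% of the exon bases of Psmb8, and since the strand setting of the counting is not given in the sources used here, reads of such pairs cannot be told apart. Psmb9 did not reach 1 RPKM in any library and so did not pass the filter used for the test across genes. The log2(RPKM + 1) differences were 1.05 for Psmb8 and 0.25 and 0.24 for Psmb9 and Psmb10, on a scale that understates the low Psmb9. With a pseudocount of 0.1 they were 1.21 for Psmb8, 0.67 for Psmb9 and 0.26 for Psmb10. The ratio of means of Psmb9 was 1.66, from few reads and overlapping groups. Psmb8 and Psmb10 thus did not share a size of difference, and that of Psmb9 depended on the scale.

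The subunits that the immunosubunits replace are encoded by Psmb5, Psmb6 and Psmb7. All were abundant, at 129.9 to 205 RPKM, and their ratios of Six2-labelled to control means were 1.09, 1.11 and 1.07, with limma-trend adjusted p of 0.553, 0.482 and 0.678. Of the summed RPKM of Psmb8 and Psmb5, Psmb8 made up 2.69% and 2.85% in control cells and 6.47% and 5.18% in Six2-labelled cells. Psmb10 made up 9.02% and 9.42% of its sum with Psmb7 in control cells and 11.1% and 9.42% in Six2-labelled cells, so Six2-labelled replicate 2 was at the level of control replicate 2. The share of Psmb9 beside Psmb6 did not exceed 0.429% in any library and its groups overlapped. The plot of shares puts the 3 pairs side by side. RNA shares say nothing of how many proteasomes held each subunit.

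**Figure D3:**
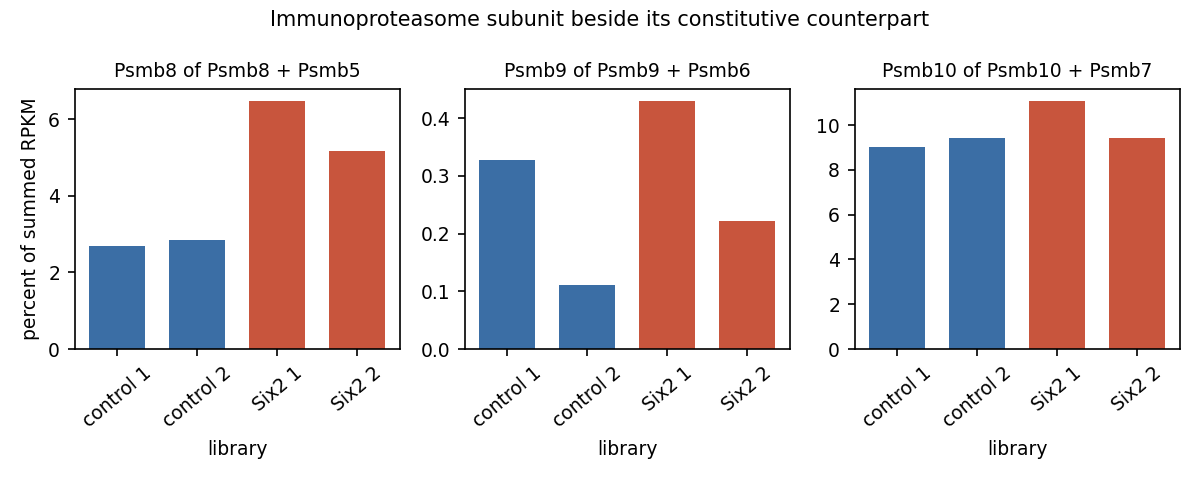
Percent of the summed RPKM of each immunoproteasome subunit gene and its constitutive counterpart that belongs to the immunosubunit, in each library (blue control, red Six2-labelled, with the replicate number on the horizontal axis). Each panel has its own vertical axis starting at 0. The Psmb8 share is 2.69% and 2.85% in control and 6.47% and 5.18% in Six2-labelled libraries.

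Both transporter genes lay higher in Six2-labelled cells. Tap2 (chromosome 17, 34203527 to 34216321, plus strand) was at 2.655 and 2.25 RPKM in the controls and at 6.31 and 4.68 RPKM in Six2-labelled cells, a ratio of means of 2.24. Tap1 (chromosome 17, 34187553 to 34197225, plus strand) was at 0.731 and 0.712 RPKM in the controls and at 1.73 and 1.48 RPKM in Six2-labelled cells, a ratio of 2.22. The Tap1 values corresponded to at least 93, 88, 254 and 356 reads. Tap1 reached 1 RPKM in the Six2-labelled libraries only, so it passed the filter through the group in which it is high. Its difference of 0.59 on the log2(RPKM + 1) scale was 1.05 with a pseudocount of 0.1. Tap2 exceeded Tap1 in RPKM by 3.63 and 3.16 times in control replicates 1 and 2 and by 3.66 and 3.17 times in Six2-labelled replicates 1 and 2, so their ratio was closer between same-numbered replicates than between replicates of a group.

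Tapbp (chromosome 17, 33915899 to 33929292, plus strand), the tapasin gene, lay in the other direction. It was at 50.9 and 32.5 RPKM in the controls and at 27.2 and 17.2 RPKM in Six2-labelled cells, from at least 3729 to 6033 reads. Every Six2-labelled value was below every control value, but the spread within the groups was wide, 41.7 ± 13.0 against 22.2 ± 7.07 RPKM (SD, n = 2 per group). Replicate 2 lay below replicate 1 by 0.63 on the log2(RPKM + 1) scale in the control group and by the same amount in the Six2-labelled group. The wide spread thus went with the replicate number, whose meaning the labels do not give. Leaving out a library makes the replicate numbers uneven between groups, so the range that follows includes this shift. The group difference of -0.88 was between -1.20 and -0.57 when each library was left out in turn, its size being smallest without Six2-labelled replicate 2 and without control replicate 1. The summed RPKM of the leukocyte markers, nearly all of it from Cd14 and Cd68, was 98.8 and 47.0 in control cells and 52.0 and 27.8 in Six2-labelled cells. That sum was lower in replicate 2 of each group, as Tapbp was, but unlike Tapbp it overlapped between groups. Its part in the result was not tested, and the defining leukocyte gene Ptprc was at or near 0. The antisense gene Gm19412 overlaps 24.9% of the exon bases of Tapbp. Tapbpl, which encodes the tapasin-related chaperone TAPBPR, was at 6.07 and 4.85 RPKM in the controls and 4.98 and 3.92 RPKM in Six2-labelled cells, and its groups overlapped (log2 difference -0.25, SE 0.168, limma-trend adjusted p = 0.529).

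The presenting molecules differed least. B2m (chromosome 2, 122147686 to 122153083, plus strand) was at 680.9 and 679.9 RPKM in the controls and at 702 and 777 RPKM in Six2-labelled cells, the groups lying apart by a ratio of 1.09. H2-D1 (chromosome 17, 35262730 to 35267499, plus strand) was at 75.5 and 76.6 RPKM in the controls and 73.5 and 83.8 RPKM in Six2-labelled cells, with control values inside the Six2-labelled range. H2-K1 (chromosome 17, 33996017 to 34000347, minus strand) was at 3.75 and 4.71 RPKM in the controls and 3.70 and 3.85 RPKM in Six2-labelled cells, again overlapping. H2-D1 was 16.25 to 21.8 times as high as H2-K1 in RPKM. Heavy chain genes are polymorphic between mouse strains and nearly alike within the family, the reference genome comes from another strain than the cells, and how reads shared between genes were counted is not given in the sources used here. The part of this in the ratio was not tested, and the heavy chain levels are uncertain for that reason.

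Nlrc5 (chromosome 8, 94434356 to 94527272, plus strand) was at 3.64 and 3.18 RPKM in the controls and at 4.30 and 3.69 RPKM in Six2-labelled cells. The groups lay apart, but Six2-labelled replicate 2 exceeded control replicate 1 by less than the replicates of either group differed. The ratio of means was 1.17, against 2.36 for Psmb8, 2.22 for Tap1 and 2.24 for Tap2.

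Replicates of a group also differed from each other. Replicate 2 minus replicate 1 had an SD over all tested genes of 0.32 in control and 0.315 in Six2-labelled libraries on the log2(RPKM + 1) scale. Among members the same difference ran from -0.63 for Tapbp to 0.27 for H2-K1 in control cells, and from -0.63 for Tapbp to 0.19 for H2-D1 in Six2-labelled cells. The group differences of Psmb8, Tap1 and Tap2 exceeded the difference between replicates in either group. Those of Psmb10, Nlrc5 and Tapbp exceeded it as well, by less than 2 times, and those of B2m, H2-D1, H2-K1 and Psmb9 were smaller than the difference between replicates of at least 1 group. Replicate differences went together between the groups across genes, r = 0.818. They were alike for Psmb9, at -0.38 in control and -0.34 in Six2-labelled cells, but opposite for Psmb10, at 0.14 and -0.14. The comparison above therefore does not give the spread of a difference between same-numbered replicates.

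Of the 10 members 7 lie in the major histocompatibility complex on chromosome 17. Between the start of Tapbp and the end of H2-D1, chromosome 17, 33915899 to 35267499, 43 other genes were tested, and 40 of them lay below 0, with a median log2 difference of -0.27. None of the 43 had both Six2-labelled values above both control values, and 27 had both below. The other 492 tested genes of chromosome 17 had a median of -0.21, with 19 apart in the higher and 263 in the lower direction. Over all genes tested the shares apart were 21.9% higher and 25.5% lower. Psmb9, Tap1, Psmb8 and Tap2, which follow each other along the chromosome, were above 0 in a stretch where most genes were below it, as the plot of genes in order along the region shows. The 3 neighbours above 0 were H2-DMa, Snord52 and Ddx39b, at 0.35, 0.13 and 0.09, and their groups overlapped. The neighbours furthest below 0, named after their values were seen, were Tnxb at -2.09, Ddah2 at -1.84 and Gpsm3 at -1.13, with limma-trend adjusted p of 0.158, 0.147 and 0.177. With the median of each chromosome removed, Psmb8 differed by 1.26, Tap2 by 1.11, Tap1 by 0.80 and Tapbp by -0.67. On that scale H2-D1 was at 0.25 and H2-K1, negative without the step, at 0.08.

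**Figure D4:**
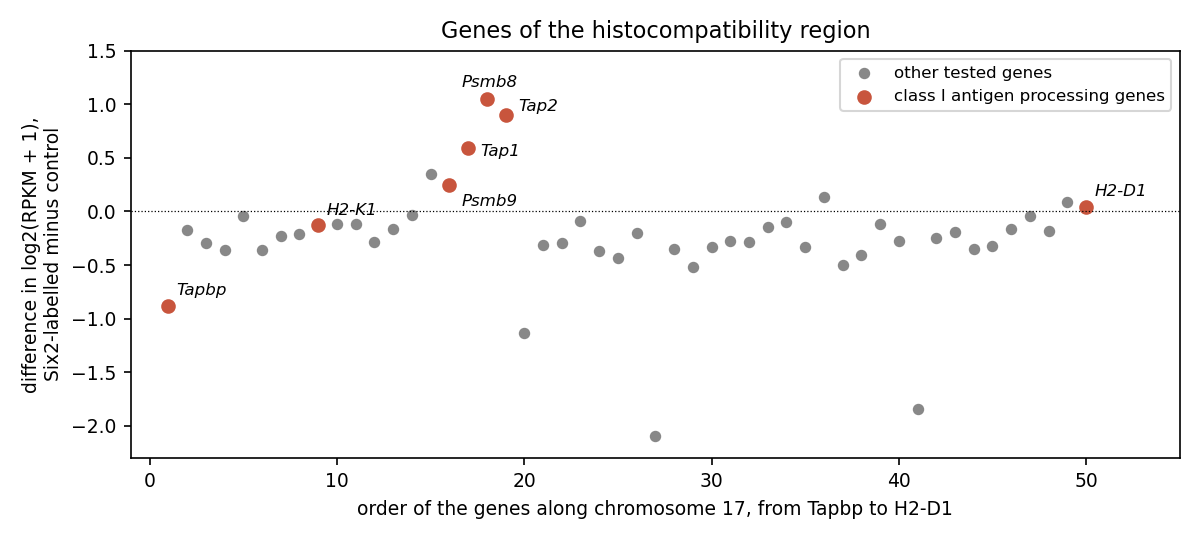
Difference in log2(RPKM + 1), Six2-labelled minus control, of 50 genes in their order along chromosome 17 from Tapbp to H2-D1. Red points are the 7 class I antigen processing genes of the region and grey points the 43 other tested genes. Psmb9, Tap1, Psmb8 and Tap2 lie above 0, while 40 grey points lie below it.

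The rest of the pathway was tested on 10 lists of genes that hold no member. In the comparison of Six2-labelled with control libraries, limma-trend called 3 genes higher and 9 lower of 10654 tested at a Benjamini-Hochberg adjusted p under 0.05, or 0.0282%, 0.0845% and together 0.113% of genes. With relative log expression factors it called 4 higher and 24 lower, without Six2-labelled replicate 2 it called 18 and 50, without Six2-labelled replicate 1 it called 4 and 31, and without control replicate 2 it called 6 and 25. Of the 96 listed genes tested, 0 were called, 0 by voom on recovered reads as well, and 10 were higher and 8 lower at an unadjusted p under 0.05. With the replicate number as a block, 24 listed genes were called higher and 19 lower, beside 43.5% of all genes tested. The labels do not say what that number marks, and the adjusted p-values given here are from the fit without the block. Both Six2-labelled values lay above both control values for 19 of the listed genes and below them for 19, beside 21.9% and 25.5% of all genes. Among the higher ones, H2-Q1 passed the filter through the Six2-labelled libraries only. The plot of list differences sets them beside the members.

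**Figure D5:**
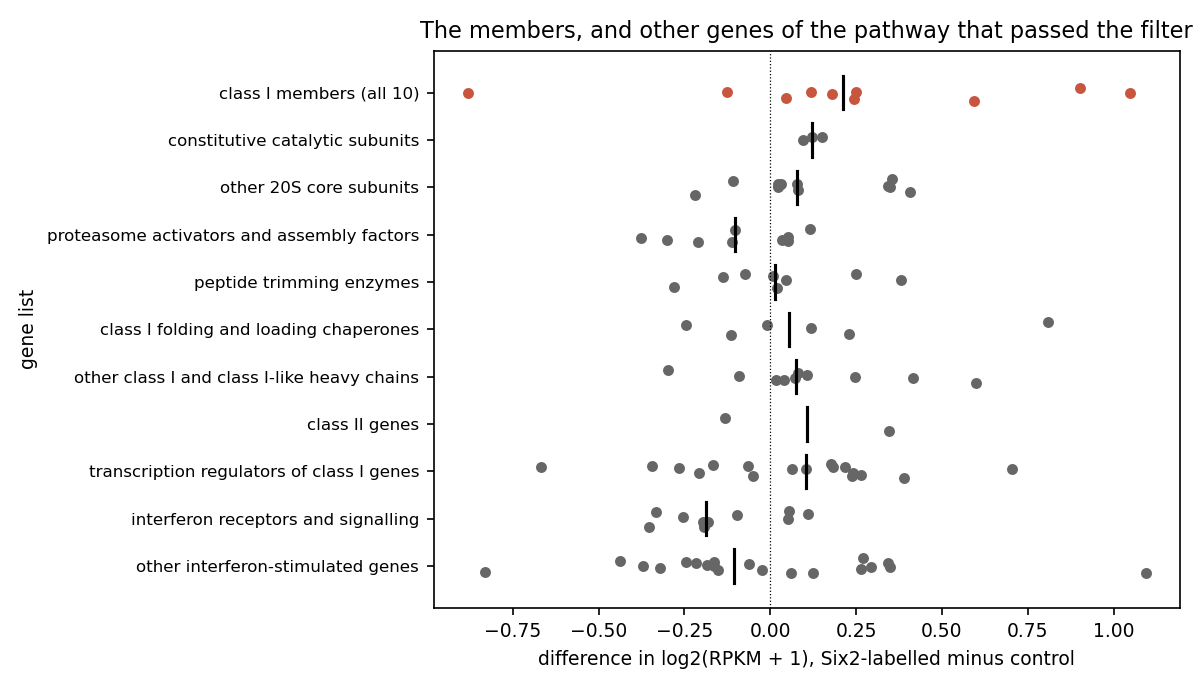
Difference in log2(RPKM + 1), Six2-labelled minus control, of all 10 class I members (red) and of the genes of each other list that passed the filter (grey). Each point is a gene, spread vertically for visibility, and the black bar is the median of the list. Medians of the other lists lie between -0.19 and 0.12.

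Of the 11 other subunits of the 20S core, 4 had both Six2-labelled values above both controls and 2 had both below. Over all genes tested these shares were 21.9% and 25.5%. The subunits had a median difference of 0.08. That median was 0.0021 without control replicate 1, 0.0014 without Six2-labelled replicate 2 and between 0.14 and 0.15 without either of the other libraries. Psma5, Psma3, Psma6 and Psmb4 had the largest differences, 0.41, 0.35, 0.35 and 0.34, and limma-trend adjusted p of 0.204, 0.244, 0.180 and 0.196. Psma5 and Psmb4 lie on chromosome 3, whose tested genes had a median difference of 0.21. Psma3 and Psma6 lie on chromosome 12, with a median of 0.25. The part of the chromosome in each difference was not tested. Psmb1, which also lies on chromosome 17, differed by -0.22. The 9 activators and assembly factors had a median of -0.10. Psme1 and Psme2, which encode the PA28 activator that interferon induces beside the immunosubunits, were at 88.8 and 76.6 against 84.7 and 69.5 RPKM and at 77.0 and 70.9 against 65.4 and 62.0 RPKM. Pomp, which encodes the assembly chaperone of new proteasomes, differed by 0.03. Neither Psme1 nor Psme2 passed (limma-trend adjusted p = 0.779 and 0.371).

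Of the 8 peptide trimming enzymes, 1 had both Six2-labelled values above and 2 had both below the controls, beside 21.9% and 25.5% of all genes. Their median difference was 0.01. Erap1, which encodes the aminopeptidase that trims peptides inside the endoplasmic reticulum, was at 9.06 and 9.40 RPKM in the controls and at 7.29 and 7.56 RPKM in Six2-labelled cells (log2 difference -0.28, SE 0.0995, limma-trend adjusted p = 0.279). Tpp2, which encodes a cytosolic peptidase, was at 21.69 and 21.65 RPKM in the controls and at 27.8 and 29.2 RPKM in Six2-labelled cells (adjusted p = 0.18). Among 6 chaperones of class I folding and loading, the median was 0.05, and it lay between -0.13 without control replicate 1 and 0.27 without control replicate 2. The abundant chaperones Calr, Pdia3 and Canx overlapped between groups, with differences of 0.23, -0.01 and -0.11. Uggt1, which encodes the folding sensor that sends glycoproteins back to the chaperones, was at 47.4 and 46.2 RPKM in the controls and at 94.4 and 72.4 RPKM in Six2-labelled cells (log2 difference 0.81, SE 0.155, limma-trend adjusted p = 0.144). Uggt1 and Tpp2, the latter with a log2 difference of 0.38, both lie on chromosome 1, whose tested genes had a median difference of 0.33.

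Of 25 other class I and class I-like heavy chain genes in the table, 10 passed the filter. Of these, 3 lay apart in the higher and 0 in the lower direction, beside 21.9% and 25.5% of all genes. H2-Q1, 1 of the 3, was at 0.940 and 0.979 RPKM in the controls and at 1.02 and 1.10 RPKM in Six2-labelled cells. It passed the filter only through the group in which it is high. The median was 0.08, or -0.03 without Six2-labelled replicate 1 and 0.31 without Six2-labelled replicate 2. H2-Q5 was at 2.53 and 2.97 RPKM in the controls and at 4.67 and 4.70 RPKM in Six2-labelled cells (log2 difference 0.60, SE 0.121, limma-trend adjusted p = 0.152). H2-Q4 was at 28.95 and 24.9 against 32.9 and 31.3 RPKM. H2-T23, the gene of the nonclassical molecule Qa-1, was at 51.45 and 31.35 against 53.9 and 30.6 RPKM, so that its values went with the replicate number and not with the group. H2-M3, which presents formylated peptides, differed by -0.30 with overlapping groups, and Fcgrt, the gene of the neonatal Fc receptor heavy chain, by 0.42 with overlapping groups. Only 2 of 10 class II genes in the table passed the filter, H2-DMa and Cd74, and Ciita, the class II counterpart of Nlrc5, did not exceed 0.0735 RPKM.

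The regulators known to act on class I genes lay on both sides of 0. Irf1, which encodes an interferon-induced factor that binds response elements of class I genes, was at 16.4 and 15.7 RPKM in the controls and at 9.89 and 9.55 RPKM in Six2-labelled cells (log2 difference -0.67, SE 0.0968, limma-trend adjusted p = 0.108). Its groups lay well apart, yet it did not pass over all genes. Rfxap, a subunit gene of the RFX complex with which NLRC5 acts, was at 5.13 and 6.24 against 7.17 and 8.33 RPKM (adjusted p = 0.291). Nfkb1 differed by 0.22, Nfyc by 0.06 and Nfkb2 by -0.17. Of the 17 regulators 10 lay above 0 and 7 below, with a median of 0.105, or 0.0041 with the median of each chromosome removed. Both Six2-labelled values lay above both controls for 5 of them and below for 3, beside 21.9% and 25.5% of all genes. With relative log expression factors these counts were 8 and 3. Over all 10654 genes tested the same step moved the counts from 2331 higher and 2716 lower to 2737 and 2329.

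Interferon receptor and signalling genes had a median of -0.19, and 5 of 10 had both Six2-labelled values below both control values, with 0 above, beside 25.5% and 21.9% of all genes. With relative log expression factors 4 were below, and with the median of each chromosome removed the median of the list was -0.06. Jak1, the kinase gene shared by interferon receptors, was at 22.01 and 20.8 against 16.6 and 16.95 RPKM (limma-trend adjusted p = 0.215). Socs1, a feedback inhibitor gene, differed by 0.11. Of 33 other interferon-stimulated genes 20 passed the filter, with a median of -0.11, or -0.21 without Six2-labelled replicate 1 and 0.10 without Six2-labelled replicate 2. Isg15, which encodes a ubiquitin-like modifier, was at 9.27 and 8.62 RPKM in the controls and at 22.8 and 17.9 RPKM in Six2-labelled cells (log2 difference 1.09, SE 0.149, limma-trend adjusted p = 0.102). Gbp2, a guanylate-binding protein gene, was at 2.67 and 2.45 against 1.20 and 0.824 RPKM (log2 difference -0.83, SE 0.152, adjusted p = 0.142), and Ifit2 was at 3.58 and 3.49 against 2.48 and 2.22 RPKM (adjusted p = 0.201). Among the most abundant, Ifitm3 was at 637 and 593 against 895 and 609 RPKM, and Lgals3bp and Samhd1 overlapped between groups too. Of the 20 interferon-stimulated genes tested, 8 lay above 0 and 12 below. Both Six2-labelled values lay above both control values for 2 of them and below for 3, beside 21.9% and 25.5% of all genes. Isg15 and Gbp2, named for the size of their differences, were the extremes of this list.

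The genes whose centred log2 profile over the 4 libraries was nearest to the mean profile of the 9 members that passed the filter were Rnf115, Hdlbp, Gpx1, Polr3c and Rap1gap, at Euclidean distances of 0.0223 to 0.0326 among 6052 candidates. Of the members themselves Nlrc5 was nearest to that mean, at 0.0939, and Tapbp furthest, at 1.24. A gene flat over the libraries would lie at 0.26. Only Nlrc5, Psmb10 and B2m were nearer to the mean than that, while Psmb8, Tap2, Tapbp, H2-K1, Tap1 and H2-D1 were further. The mean profile, which joins opposite directions, therefore stands for few of the members. With 4 libraries this likeness is a description only.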

How the data were processed

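The members and gene lists were chosen with earlier results of these data known. Polyadenylated RNA was sequenced from TruSeq stranded libraries, per the labels' protocols. The submitters' processing notes list the builds GRCm38 and mm10, HTSeq 0.8.0, TopHat2 2.1.1, Bowtie2, Picard 2.9.4, SAMtools 1.5, FastQC 0.11.5 and bcl2fastq 1.8.4. The authors deposited RPKM values. What gene models, strand setting and handling of shared reads were used is not given in the sources used here. Overlapping and antisense genes are therefore uncertain. GENCODE M21 exons on the opposite strand overlap Psmb8, Psmb9, Tap1, Tap2, Tapbp and Nlrc5.

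Read totals were recovered from the RPKM steps, and all 14459 genes above 0 in at least 3 libraries gave whole reads within 0.001 reads or, for large values, 3e-07 of the value. limma 3.58.1 in R 4.3.3 fitted log2(RPKM + 1) on group with a variance trend, for the 10654 genes with a minimum of 2 libraries at or above 1 RPKM, two-sided, with Benjamini-Hochberg adjustment over all of them and a threshold of 0.05. The fit was run on simulated reads of libraries drawn independently of each other. Same-numbered replicates of the real data deviated together, so that run does not cover their spread. Coordinates come from GENCODE M21 (GRCm38) and promoter windows from RefSeq.

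Named were all members and Six2, any gene of a list of up to 12 genes, and in longer lists the called genes, the 3 of highest mean RPKM and the 3 with the largest difference, as well as the 5 nearest profiles at a mean of 10 RPKM or more without a clone, model or pseudogene name. Other names were chosen after their values were seen, and 1 gene that the rule names is not reported here. Alternatives covered scaling, pseudocount, filter, recovered reads, chromosome medians, the replicate block and each library left out.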

Additional observations from a re-analysis of the deposited data

How the results depend on the processing

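With 2 libraries a group the tests have little precision, and the rarest members rest on read numbers that, at the smallest fitting the RPKM steps, were 7 to 34 (Psmb9) and 88 to 356 (Tap1). Of all genes, 3 were called higher and 9 lower. Relative log expression factors gave 24 lower, no filter on low values gave 0 higher and 0 lower, and leaving out each library gave between 2 and 18 higher and between 9 and 50 lower, the most without Six2 replicate 2 (18 and 50). Without control replicate 2 the calls were 6 and 25, and without Six2 replicate 1 they were 4 and 31. Replicate numbers are not said to mark a shared culture or day. Same-numbered replicates deviated together, r = 0.818 across genes between the replicate differences of the groups, and with the number as a replicate block 2133 genes were higher and 2506 lower, 43.5% of all tested, among them 24 higher and 19 lower of the listed pathway genes. The listed genes had 0 calls under the other alternatives. The median difference of the members, 0.21, lay between 0.11 and 0.29 with each library left out and between 0.21 and 0.24 under the other settings. Psmb8, Tap1, Tap2, Psmb9, Psmb10, B2m and Nlrc5 kept a positive and Tapbp a negative difference under every alternative. For all of these except Psmb9 the groups did not overlap, so leaving out a library or changing the pseudocount could not change the sign. The filter and the replicate block leave the difference of a gene as it was. The kept signs therefore say little about how firm these differences are. Psmb9 moved from 0.25 to 0.67 with a pseudocount of 0.1 and to 0.80 with recovered reads, and was 0.06 without control replicate 2 and 0.08 without Six2 replicate 1. Tap1 was 1.14 with recovered reads. H2-D1 lay between -0.05 and 0.25 and H2-K1 between -0.26 and 0.08. The cause of these moves was not tested, other than the pseudocount's own effect on low values.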
